A study of Mus musculus with 2 samples.

Results

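The 7 genes Tmem119, Olfml3, Sparc, Siglech, Fcrls, Selplg and Cx3cr1 encode surface and secreted proteins that mark microglia in their resting, homeostatic state. They were chosen by name from 19537 genes listed in the files, and all 7 were measured in both libraries. Microglia, which are the macrophages of the brain tissue itself, were sorted as CD11b+CD45int from PARK7/DJ-1 knock-out (KO) and wildtype (WT) mice and profiled by Drop-seq, a droplet method that labels each cell's RNA with a barcode and counts molecules by their unique molecular identifiers (UMIs). All mice of both groups had been given a single intraperitoneal injection of lipopolysaccharide (LPS), which comes from bacterial cell walls and sets off inflammation, 24 h earlier, as young adults. The KO line carries a gene-trap allele of Park7 in every tissue and had been backcrossed to C57BL/6NCrl, and the WT mice were littermates. There was 1 library per genotype, called KO LPS and WT LPS, and each pooled 2 mice, 1 female and 1 male. No uninjected library was analysed here, so that the values compare genotypes after LPS and not the response to LPS.

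Cells were barcodes with at least 500 UMIs and at least 100 genes, which left 320 for KO LPS and 1427 for WT LPS. Their UMIs numbered 381305 and 1989011, with a median of 963.5 and 1065 UMIs per cell. No cell barcode was shared by the libraries. Park7, the targeted gene, was represented by 1 UMI among KO LPS cells against 323 among WT LPS cells, as the labels have it. Levels are UMIs per 1e6 UMIs of the cells of a library (CPM), and since Drop-seq tags the 3' end of a transcript they were not divided by gene length. With 1 library per genotype there are no replicates and no test between the genotypes was made. The 95% intervals cover counting error only, and genotype and library cannot be told apart.

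Homeostatic microglia are kept in their resting state by signals from the surrounding brain tissue, among them transforming growth factor beta and fractalkine, and lose much of this programme when they respond to bacterial products. Cx3cr1 is the receptor for fractalkine, a chemokine presented by neurons. Siglech is a sialic acid-binding lectin that signals through the adaptor Tyrobp, Fcrls is a scavenger receptor related to Fc receptors, and Selplg is the ligand through which leukocytes bind selectins. Tmem119 is a transmembrane protein of unsettled function that is widely used to tell microglia from other macrophages. Sparc and Olfml3 are secreted proteins of the extracellular matrix. Outside microglia, Sparc is also known from endothelial cells and astrocytes, Siglech from plasmacytoid dendritic cells, and Cx3cr1 and Selplg from blood leukocytes.

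The genes lie on 5 chromosomes, none of them chromosome 4, which holds Park7. By RefSeq (GRCm38), Tmem119 (chromosome 5, 113793729 to 113800396) and Selplg (chromosome 5, 113817798 to 113832528) are neighbours with 17401 bases between them. Olfml3 (103735394 to 103738001) and Fcrls (87250736 to 87263765) both lie on chromosome 3 but far apart. Siglech lies on chromosome 7 (55768154 to 55779448), Cx3cr1 on chromosome 9 (120048683 to 120068296) and Sparc on chromosome 11 (55394159 to 55420080). Olfml3, Selplg and Cx3cr1 each overlap a non-coding gene on the opposite strand in the GENCODE annotation. The use of strand in counting is not given in the sources used here, so that reads of these pairs may not have been told apart.

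The bases before the RefSeq start (GRCm38.p6) are shown for Siglech, the gene with the largest difference, and for Olfml3, the gene at the median of the 7, 5′ to 3′ on the gene's strand and without bases inside the gene. Capitals mark the letters GAGGAA, the core of sites for PU.1 (an ETS factor that microglia depend on), and GGAAGTG, a longer ETS form, both searched on either strand, so that CACTTCC is the latter on the opposite strand. Both motifs hold the letters GGAA. The positions are chr7:55767934-55768153 (plus strand) for Siglech and chr3:103738002-103738251 (minus strand) for Olfml3.
Siglech: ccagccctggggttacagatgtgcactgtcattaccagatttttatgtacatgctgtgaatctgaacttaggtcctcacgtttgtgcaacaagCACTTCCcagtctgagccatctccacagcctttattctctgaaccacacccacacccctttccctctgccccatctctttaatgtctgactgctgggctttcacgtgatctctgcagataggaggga
Olfml3: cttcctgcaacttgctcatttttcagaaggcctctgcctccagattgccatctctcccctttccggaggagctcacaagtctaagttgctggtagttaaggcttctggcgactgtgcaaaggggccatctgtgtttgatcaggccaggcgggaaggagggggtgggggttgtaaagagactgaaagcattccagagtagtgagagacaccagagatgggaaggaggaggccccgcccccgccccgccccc
In the 250 bases before the start given in the RefSeq promoter table, which had 5 of the 7 members, GAGGAA was present in 1 (Fcrls, 144 bases before the start) and GGAAGTG in 2 (Fcrls at 76 and Siglech at 157 bases). The start given for Fcrls lies inside the gene, so that 241 of its 250 bases are within the RefSeq span, as are 30 of those of Siglech. Among all 32851 promoters of the same length the shares were 23.3% and 8.55%. These matches are a description of letters in a short window.

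All 7 genes had a higher level in KO LPS than in WT LPS. The KO LPS level divided by the WT LPS level (the ratio) ranged from 1.71 for Cx3cr1 to 5.86 for Siglech, and the median log2 ratio of the 7 genes was 1.29. Over the 9085 genes with at least 20 UMIs the median was 0.03. All 7 members were higher by over 1.5-fold, which 26.2% of these genes were, and 5 of 7 were higher by over 2-fold, which 13.5% of them were. The fifth, Sparc, lay at the limit and fell below it under 3 of 12 alternatives. Of the 2462 genes with at least 200 UMIs, 19.3% were higher by over 1.5-fold. Together the 7 genes made up 1.75% of the UMIs of KO LPS cells and 0.796% of those of WT LPS cells, a ratio of 2.20 (2.14 to 2.26).

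The surface receptors differed most and least. Siglech stood at 1993 CPM in KO LPS (interval 1854 to 2140; 760 UMIs) and at 340 CPM in WT LPS (315 to 367; 677 UMIs). Its ratio of 5.86 (5.27 to 6.50) was the 8th highest among the 2462 genes with at least 200 UMIs. Fcrls, at 1518 CPM (1397 to 1647) and 397 CPM (369 to 425), had a ratio of 3.83 (3.43 to 4.27) and was the 19th highest. Cx3cr1 had the most UMIs of the 7 genes, 2517 and 7698, and stood at 6601 CPM (6346 to 6864) and 3870 CPM (3784 to 3958). Its ratio of 1.71 (1.63 to 1.78) was the smallest, although its interval was the narrowest. Tmem119, at 907 CPM (814 to 1008) and 498.7 CPM (468 to 531), had a ratio of 1.82 (1.61 to 2.06), and the intervals of Tmem119 and Cx3cr1 overlapped. Selplg, at 1728 CPM (1599 to 1865) and 615 CPM (581 to 651), had a ratio of 2.81 (2.55 to 3.09). Tmem119 and Selplg, neighbours on chromosome 5, thus had ratios whose intervals did not overlap.

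The secreted proteins lay between these. Olfml3 stood at 1421 CPM (1304 to 1546) in KO LPS and 583 CPM (550 to 618) in WT LPS, a ratio of 2.44 (2.20 to 2.70). Sparc stood at 3336 CPM (3155 to 3524) and 1652 CPM (1596 to 1709), a ratio of 2.02 (1.89 to 2.16). Of the 21 pairs of members, 18 had ratios whose intervals did not overlap. The share among pairs of other genes with as many UMIs was not computed, so this count is not shown to be particular to the members.

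**Figure D1:**
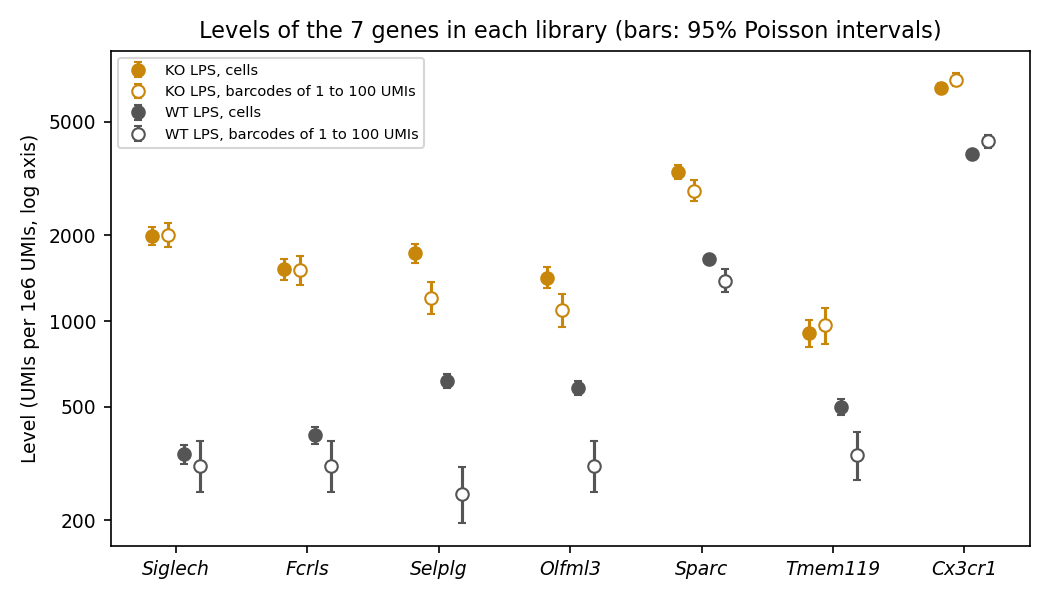
Levels of the 7 genes in UMIs per 1e6 UMIs (log axis), with 95% Poisson intervals, in cells (filled) and in barcodes of 1 to 100 UMIs (open) of KO LPS and WT LPS. Every filled KO LPS point lies above the filled WT LPS point of the same gene, from 1993 against 340 for Siglech to 6601 against 3870 for Cx3cr1.

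The direction was the same in cells of every depth, and the size was not for each gene. In every depth class of cells (500 to under 750, 750 to under 1000, 1000 to under 2000 and at least 2000 UMIs) each of the 7 genes was higher in KO LPS beyond counting error, 28 ratios in all, from 1.62 to 7.49. Of the 2462 genes with at least 200 UMIs, many of them with fewer UMIs than the members, 11.6%, 14.3%, 22.4% and 16.2% were so in these classes. For the members the summed ratio stayed between 2.13 and 2.39. Siglech varied most in these classes, from 4.75 (3.57 to 6.34) in the shallowest to 7.49 (6.27 to 8.97) at 1000 to under 2000 UMIs and 4.80 (3.95 to 5.81) in the deepest. The KO LPS sum was 16447 CPM in the shallowest and 17194 CPM in the deepest class, and the WT LPS sum 7559 and 8068 CPM. Each library mixed a female and a male mouse. In cells with at least 1 UMI of Xist, the RNA that silences the second X chromosome of females (209 in KO LPS and 645 in WT LPS), all 7 genes were higher in KO LPS beyond counting error, as 24.8% of the 2462 genes were, and Siglech had a ratio of 6.59 (5.76 to 7.56). In cells with UMIs of the Y-linked genes Ddx3y, Uty, Eif2s3y or Kdm5d and none of Xist, of which KO LPS had only 12 and WT LPS 195, this held for 6 of 7 members and 7.39% of the 2462 genes, and Tmem119 had a ratio of 1.46 (0.761 to 2.55). These classes were not assigned to animals, and the part of free Xist RNA in them was not tested.

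The scale of the ratios depended on the reference. The 80 ribosomal protein genes summed to 12887 CPM for KO LPS against 25261 CPM for WT LPS, and taking them as the reference raised every log2 ratio by 0.97. The median log2 ratio of the members was then 2.26 and that of all genes 1.00. Since this scaling moves all genes alike, the members kept their place among them.

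**Figure D2:**
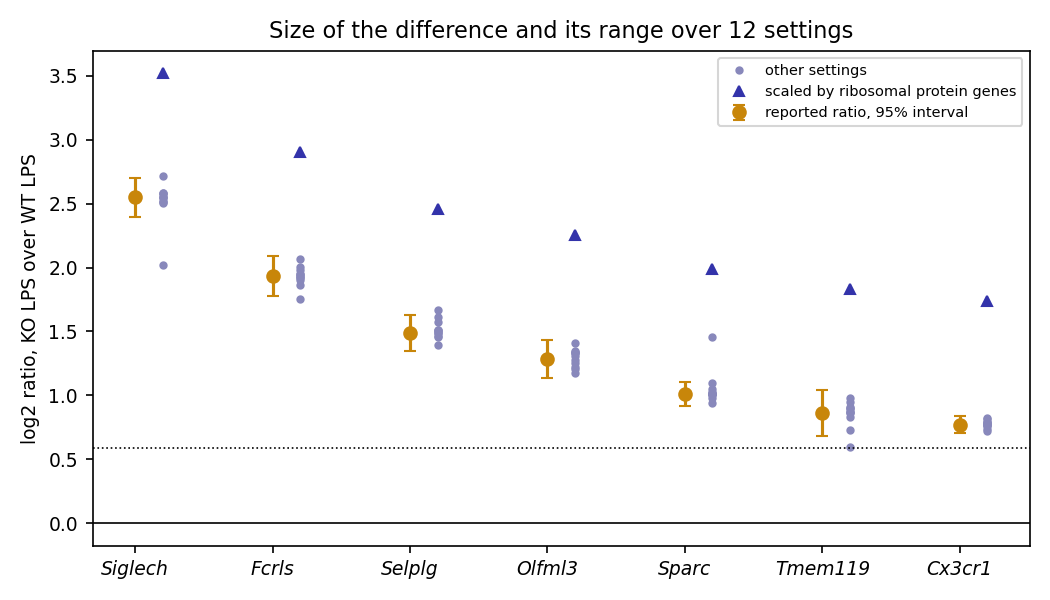
log2 ratio (KO LPS divided by WT LPS) for each gene, with its 95% interval (large points), under 11 other settings (small points) and scaled by ribosomal protein genes (triangles); the dotted line marks 1.5-fold. The order runs from Siglech (2.55) to Cx3cr1 (0.77), and no setting brings a gene to 0.

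Most KO LPS cells held more UMIs of the 7 genes than most WT LPS cells. Every cell was thinned to 500 UMIs, and the UMIs of the 7 genes were summed. KO LPS cells held between 0 and 24 such UMIs with a median of 9, and WT LPS cells between 0 and 16 with a median of 4. More than 4 were present in 86.2% of KO LPS cells and 37.0% of WT LPS cells. The 2 libraries overlapped, but only 2.24% of WT LPS cells lay above the KO LPS median. At least 5 of the 7 genes were present in 37.8% of KO LPS cells (32.5 to 43.4) and in 4.41% of WT LPS cells (3.41 to 5.61). At most 2 were present in 11.9% (8.54 to 15.9) and 56.9% (54.3 to 59.5). Free RNA of the same library was taken from barcodes of 1 to 100 UMIs, 9069 in KO LPS (198723 UMIs) and 4267 in WT LPS (315748 UMIs). The barcodes of WT LPS thus held more UMIs each, and shallow cells in either library were not told apart from free RNA. Taken as it stands, this free RNA would give nearly the same values. At 500 UMIs it would give a mean sum of 8.35 where KO LPS cells had 8.81, and 3.59 where WT LPS cells had 3.96. The mean number of members present would be 4.16 against 4.08 in KO LPS cells and 2.09 against 2.36 in WT LPS cells. These counts per cell therefore do not show by themselves which cells expressed the genes.

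The share of cells with at least 1 UMI at this depth was higher in KO LPS for each gene. It was 59.1% (53.5 to 64.5) against 14.4% (12.7 to 16.4) for Siglech, 46.2% (40.7 to 51.9) against 19.1% (17.1 to 21.2) for Fcrls, and 54.1% (48.4 to 59.6) against 24.7% (22.5 to 27.1) for Selplg. Olfml3 was present in 45.6% (40.1 to 51.3) and 22.8% (20.7 to 25.1), Sparc in 75.3% (70.2 to 79.9) and 53.0% (50.3 to 55.6), and Tmem119 in 35.0% (29.8 to 40.5) and 21.1% (19.0 to 23.3). Cx3cr1 was present in 92.2% (88.7 to 94.9) and 80.4% (78.2 to 82.4), where little room for a difference was left. Without thinning, the shares ran from 57.2% for Tmem119 to 97.5% for Cx3cr1 in KO LPS and from 31.2% for Siglech to 92.9% for Cx3cr1 in WT LPS.

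Much of these shares was at the level of free RNA. No cell type that should lack the genes was present in number, so the share that droplets filled with 500 UMIs of the library's own barcodes of 1 to 100 UMIs would reach was used as background. In KO LPS, Cx3cr1 (background 97.1%) lay below it beyond counting error in both of 2 draws of 500 UMIs per cell. Selplg lay above it (45.4%) and Fcrls below it (53.0%) in the first draw, but in the second both had a share of 48.8% (43.2 to 54.4), which includes either background. Siglech (63.4%) lay below it in the second draw alone, at 57.2% (51.6 to 62.7). The background lay within the intervals of Tmem119, Olfml3 and Sparc in both draws. In WT LPS, Selplg (11.6%), Olfml3 (14.4%), Tmem119 (15.6%) and Fcrls (14.4%) lay above it and Cx3cr1 (88.2%) below it in both draws. Sparc (50.05%) lay above it in the first draw alone, and Siglech was at it (14.4%) in both. For the genes at or below background, a single UMI therefore does not show that the cell itself expressed the gene.

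**Figure D3:**
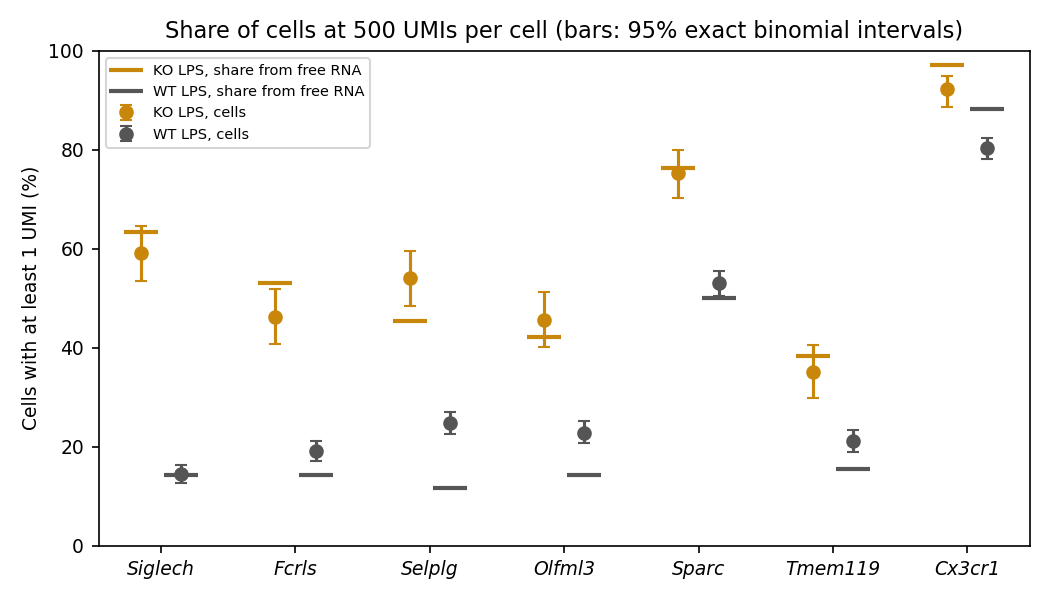
Share of cells with at least 1 UMI of each gene, all cells thinned to 500 UMIs, with 95% exact binomial intervals (points), and the share that free RNA of the same library would give (horizontal marks). In WT LPS the share of Selplg, 24.7%, stands well above its mark of 11.6%, and in KO LPS most shares lie near their marks.

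In the barcodes of 1 to 100 UMIs all 7 genes were also higher in KO LPS, 3 of them by more than in cells. The shares of all genes that were so in these barcodes were not computed, so neither count is shown to be particular to the members. Their summed level of the 7 genes was 16692 CPM (16128 to 17269) for KO LPS against 7177 CPM (6884 to 7478) for WT LPS, a ratio of 2.33 (2.20 to 2.45). Siglech again had the largest ratio there, 6.47 (5.17 to 8.15), and Cx3cr1 the smallest, 1.65 (1.53 to 1.78). The ratios of Selplg, 4.89 (3.77 to 6.40), Olfml3, 3.52 (2.76 to 4.51), and Tmem119, 2.85 (2.24 to 3.65), had intervals above those in cells, and the median log2 ratio of the 7 genes was 1.81 against 1.29 in cells. Set against its level in cells, Selplg was the least abundant in these barcodes, at 0.699 (0.600 to 0.811) in KO LPS and 0.401 (0.315 to 0.505) in WT LPS, followed by Olfml3 at 0.768 (0.653 to 0.901) and 0.532 (0.429 to 0.654). Cx3cr1 was as abundant outside the cells as inside in KO LPS, at 1.07 (0.998 to 1.14), and more so in WT LPS, at 1.10 (1.04 to 1.17).

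The members hardly varied together from cell to cell. Over the 320 cells of KO LPS at 500 UMIs, the median Pearson r of the 21 pairs was 0.06, from -0.05 (Tmem119 and Siglech) to 0.21 (Olfml3 and Selplg). Over the 1427 cells of WT LPS the median was 0.04, from 0.001 (Tmem119 and Siglech) to 0.09 (Olfml3 and Cx3cr1). With a second draw of the same 500 UMIs per cell, the pair of Olfml3 and Selplg fell from 0.21 to 0.03 in KO LPS, so the highest value rests on the draw. In cells with at least 1000 UMIs thinned to 1000, the medians were 0.06 over 148 cells and 0.06 over 770 cells, and the highest value was that of Siglech and Cx3cr1 in KO LPS (0.23). Points share a library and a fixed total, counts are sparse, and values this weak are no finding of common regulation or of its absence.

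Each gene's counts were only slightly more spread than counting alone, where the variance equals the mean. The ratio of variance to mean at 500 UMIs ran from 1.04 (Tmem119) to 1.49 (Cx3cr1) in KO LPS and from 1.01 (Fcrls) to 1.30 (Cx3cr1) in WT LPS. For the sum of the 7 genes it was 1.77 and 1.47.

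**Figure D4:**
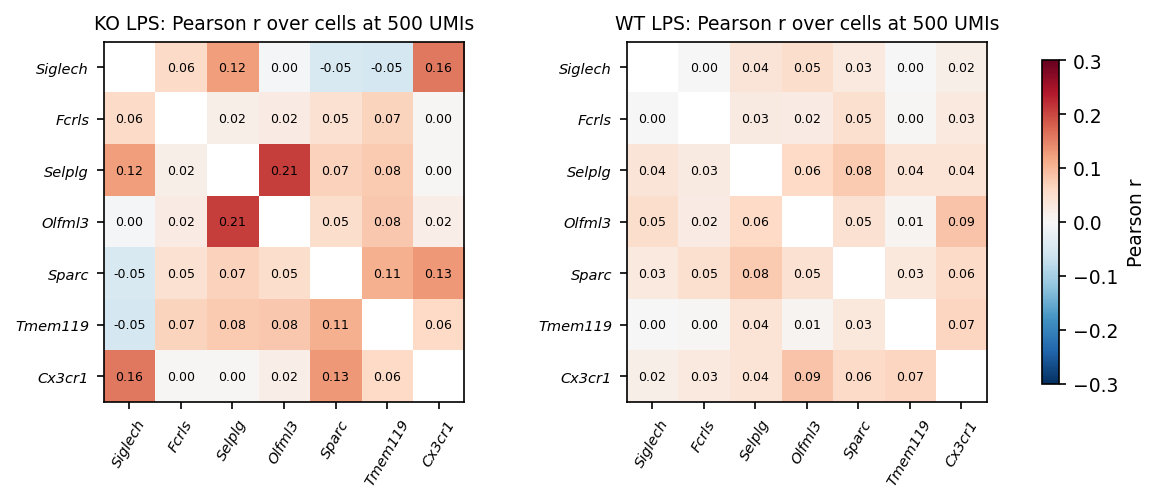
Pearson r over cells for each pair of the 7 genes in KO LPS (left, 320 cells) and WT LPS (right, 1427 cells), all cells thinned to 500 UMIs; the colour scale runs from -0.3 to 0.3. Most squares are pale, with the highest value, 0.21, for Olfml3 and Selplg in KO LPS.

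Among 221 other genes with at least 200 UMIs in each library, the 4 that followed the summed members most closely in both libraries were Cst3, C1qc, C1qa and C1qb. Cst3 encodes a secreted protease inhibitor and the C1q genes the chains of the first complement component. Pearson r with the sum was 0.25 in KO LPS and 0.22 in WT LPS for Cst3, 0.22 and 0.20 for C1qc, 0.20 and 0.18 for C1qa, and 0.17 and 0.14 for C1qb. Between the libraries, Cst3 had a log2 ratio of 0.58, while C1qa (-0.90), C1qb (-0.47) and C1qc (-0.41) were lower in KO LPS. At the other end, and chosen after its value was seen, mt-Rnr2, a mitochondrial ribosomal RNA, had an r of -0.30 and -0.18.

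Within WT LPS the summed level of the members did not differ beyond counting error between cells with few and many inflammatory UMIs. A list of 28 inflammatory genes, among them Saa3, Ccl12 and Msr1, summed to 837 CPM (KO LPS) against 14283 CPM (WT LPS). At 500 UMIs per cell, WT LPS had 66 cells without any UMI of this list, 678 with 1 to 4 and 683 with 5 or more. The 7 genes summed to 7364 CPM (6467 to 8350), 7932 CPM (7635 to 8238) and 7962 CPM (7665 to 8267) in these classes. The ratio of the highest class over the lowest was 1.08 (0.948 to 1.24), and 1.11 per UMIs outside the inflammatory list. Between the 2 large classes the summed ratio was 1.00 (0.951 to 1.06). Single genes depended on the draw. With 5 or more against 1 to 4 inflammatory UMIs, Siglech stood at 296 against 395 CPM, a ratio of 0.748 (0.572 to 0.976), and Selplg at 548 against 670 CPM, a ratio of 0.818 (0.670 to 0.997), both lower beyond counting error. In a second draw of 500 UMIs per cell, chosen after seeing the data, these ratios were 0.895 (0.691 to 1.16) and 0.896 (0.729 to 1.10). Fcrls, in the highest class over the lowest, had a ratio of 1.96 (0.927 to 4.96) in the first draw and 0.619 (0.402 to 0.992) in the second. In KO LPS, 217 cells had no inflammatory UMI and the 7 genes summed to 17429 CPM (16652 to 18232). Between cells without inflammatory UMIs, KO LPS exceeded WT LPS by a ratio of 2.37 (2.07 to 2.72), as in the whole libraries. The part of free RNA in these classes was not tested.

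**Figure D5:**
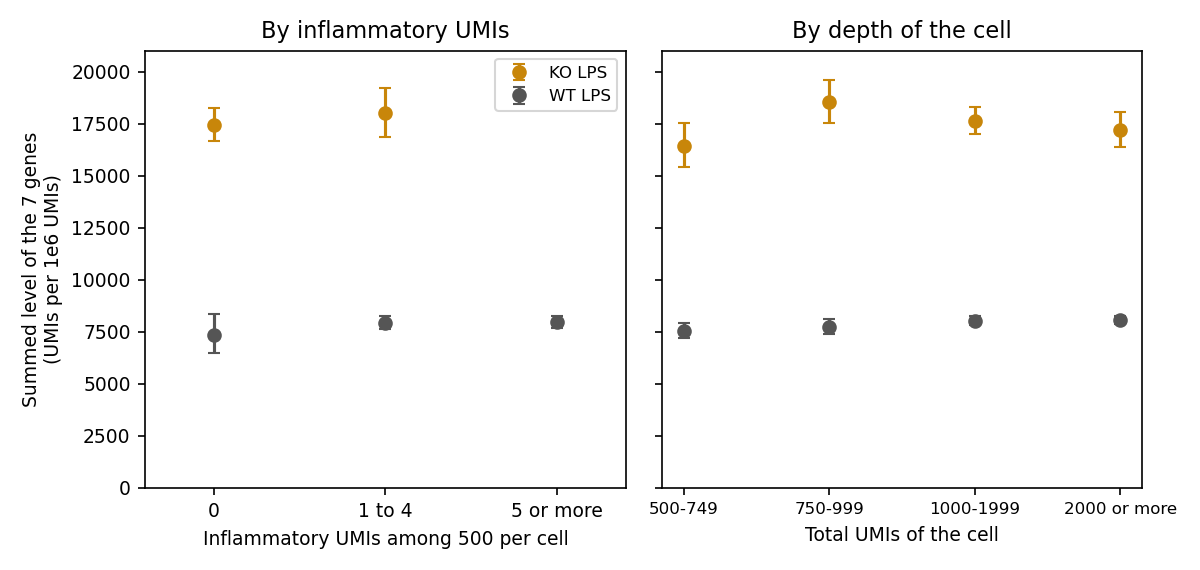
Summed level of the 7 genes in UMIs per 1e6 UMIs, with 95% Poisson intervals, by inflammatory UMIs among 500 per cell (left) and by total UMIs of the cell (right); the single KO LPS cell with 5 or more inflammatory UMIs is not drawn. WT LPS stays between 7364 and 8068 and KO LPS between 16447 and 18540 in all classes.

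Other homeostatic genes went the same way. Of 17 such genes, 13 were higher in KO LPS by over 1.5-fold and 0 lower, where 26.2% and 25.8% of all genes with at least 20 UMIs were, and their median log2 ratio was 1.77. The highest were P2ry12 (3.24) and Gpr34 (3.01), a pair of nucleotide and lipid receptors, and Crybb1 (2.44), and the lowest of those with at least 50 UMIs was Lpcat2 (0.25). These genes and the members were chosen with earlier results of these data known, so that their direction is no independent evidence. Genes of macrophage identity more broadly did not: of 10, only Csf1r (0.90), the receptor on which microglia depend for survival, was higher by over 1.5-fold and only C1qa lower, with a median of -0.33. Csf1r stands in both of these lists.

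Of 11 genes that act with the members and had at least 20 UMIs, 0 were higher in KO LPS by over 1.5-fold, where 26.2% of all genes were, and 4 were lower, where 25.8% were. The list held 16 genes, of which 15 were in the files. Tyrobp, the adaptor of Siglech, stood at 1041 CPM (KO LPS) and 1258 CPM (WT LPS) (log2 ratio -0.27), and Syk, the kinase that such adaptors recruit, at 139 and 138 CPM (0.02). Gnai2, a G protein subunit that chemokine receptors such as Cx3cr1 use, had a log2 ratio of 0.41. Of the enzymes that make Selplg able to bind selectins, Gcnt1 had a log2 ratio of -0.18, Tpst2 of -0.01, B4galt1 of -1.03 and Tpst1 of -1.68, the last with 3 and 58 UMIs. Adam10, a protease that sheds fractalkine, had -0.67. The selectins Selp and Sele and the enzyme Fut7 had 0 UMIs in both libraries, where 3 counts would correspond to 7.87 and 1.51 CPM.

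Among relatives of the members, 16 of 17 were in the files and 9 had at least 20 UMIs, of which 5 were higher by over 1.5-fold and 3 lower, where 26.2% and 25.8% of all genes were. Ccr1, a chemokine receptor related to Cx3cr1, stood at 23.6 and 55.3 CPM (log2 ratio -1.16). Of the lectins related to Siglech, Cd33 stood at 170 and 87.5 CPM (0.97) and Siglece at 34.1 and 79.9 CPM (-1.18). Siglec1, an interferon-induced lectin, was absent from KO LPS (0 UMIs) but had 76 UMIs in WT LPS, which with a floor of 3 counts makes it at least 4.86-fold lower. Sparcl1, the relative of Sparc known from astrocytes, stood at 68.2 and 15.1 CPM (2.18). Olfml2b had 14 and 49 UMIs (0.61).

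Astrocyte and endothelial genes, from cell types that also express Sparc, were low beside it but higher in KO LPS. The 11 astrocyte genes summed to 480 CPM (413 to 555) for KO LPS against 201 CPM (181 to 221) for WT LPS, most of it Slc1a3 (268 and 140 CPM), while Aqp4 was at 0 UMIs in both. Endothelial genes, 11 in all, stood at 115 CPM (83.8 to 155) against 23.1 CPM (16.9 to 30.8), most of it Pecam1 (16 and 25 UMIs) and, in KO LPS, Flt1 (14 and 3 UMIs), with Cldn5 at 1 UMI in each. The mural and fibroblast genes summed to 31.5 and 15.1 CPM. Against these, Sparc alone stood at 3336 and 1652 CPM. Plasmacytoid dendritic cell genes, the other known source of Siglech, had 2 and 50 UMIs, of which Cox6a2 alone made up 1 and 48, with Ccr9 at 0 and 1 UMI. Monocyte genes had 10 and 35 UMIs with Ly6c2 at 0 in both, and lymphocyte genes had 3 and 35 UMIs. Border macrophage genes summed to 462 and 445 CPM, most of it Stab1 (399 in both), but Mrc1 was higher in KO LPS, at 62.9 and 10.6 CPM with a ratio of 5.96 (3.18 to 11.3), and F13a1 had 0 and 46 UMIs, both named after their values were seen. Of neutrophil genes, WT LPS had 141 UMIs and KO LPS 0, oligodendrocyte genes stood at 105 and 74.4 CPM, and choroid plexus genes at 2119 and 14.6 CPM, most of it Ttr. The choroid plexus sum in KO LPS was thus above the level of every member other than Sparc and Cx3cr1. Without the cells that held at least 2 UMIs summed over all of these lists, 204 and 1015 cells were left. The ratios stayed close to those above: 2.07 (1.90 to 2.26) for Sparc, 5.68 (4.93 to 6.54) for Siglech and 1.75 (1.65 to 1.86) for Cx3cr1.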

How the data were processed

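The authors deposited 1 matrix of raw counts per library, UMIs per gene and barcode, without normalisation or filtering to cells. The submitters' processing notes name bcl2fastq 2.0, STAR and the builds mm9 and mm10, with no role given; the counting program and the annotation are not given in the sources used here. The matrices held 684738 UMIs (KO LPS) and 3063795 UMIs (WT LPS) in 9999 barcodes each. Genes listed for only 1 library carry missing values in the other (5616 and 3036 genes), read as 0.

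Cells were barcodes with at least 500 UMIs and 100 genes, and doublets were left in with no caller run. UMIs were summed over cells and given per 1e6. Intervals (95%) were exact Poisson for levels, exact conditional binomial for ratios and Clopper-Pearson for shares. log2 ratios used a prior count of 0.5. A call is a fold of over 1.5. Because cells of 1 library are not replicates, no test such as the study's MAST was run. Thinning drew 500 UMIs per cell without replacement. Calculations used Python 3.11.15, numpy 2.4.6, scipy 1.17.1 and pandas 2.3.3 and were tested on simulated data.

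The 7 genes and the 15 other gene lists were chosen with earlier results of these data known. Named genes were the members, Park7, the 3 highest and 3 lowest of a list among genes with at least 50 UMIs, other genes of the lists of homeostatic genes, partners and relatives, genes that hold most of a cell type list, defining markers of other cell types at or near 0 (Cldn5, Aqp4, Ccr9, Ly6c2, chosen outside this rule after their values were seen), and the 5 genes closest to the summed members across cells. Some genes that this rule covers are not reported here. Of 175 list entries, 4 were matched by an older symbol through RefSeq and 11 were not matched. Gene positions and promoters are from RefSeq (GRCm38.p6). Alternatives covered the cell threshold, weighting, scaling, free RNA, depth, Xist or Y-linked UMIs, the deepest cells and cells with markers of other types.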

Additional observations from a re-analysis of the deposited data

Results flagged for a closer look

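Barcodes of more than 100 but under 500 UMIs entered no comparison above, other than as part of the alternative that set no UMI minimum. There were 443 of them in KO LPS and 4302 in WT LPS, with 104710 and 759036 UMIs. The 7 genes summed to 16130 CPM (15370 to 16918) for KO LPS against 6365 CPM (6186 to 6547) for WT LPS, a ratio of 2.53 (2.396 to 2.679), above the level in WT LPS, taken as the control. Siglech (6.14) and Fcrls (6.19) had the largest ratios there and Cx3cr1 (1.60) the smallest. This was picked out because it is a signal in data outside the main measurement.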

How the results depend on the processing

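All 12 alternatives for the levels kept every member higher in KO LPS. Scaled by ribosomal protein genes, the median log2 ratio of the members was 2.26 and the summed ratio 4.31, a shift that all genes share by construction. Among cells with Y-linked but without Xist UMIs, 12 of them in KO LPS, the median was 1.46. Over the alternatives other than the ribosomal scaling the median ranged from 1.21 to 1.46 and the summed ratio from 2.15 to 2.26. All 7 members stayed above 1.5-fold under each of these alternatives, Tmem119 in the Y-linked class only by the prior count of 0.5 (its plain ratio was 1.46). A fold of 2 was passed by 5 members, by 7 under the ribosomal scaling and by 4, without Sparc, under 3 alternatives. Sparc had a log2 ratio of 0.94 in Xist cells and of 0.98 with the median of all genes set to 0. Without the 5% of cells with most UMIs it was 1.00, just under the limit. Under the ribosomal scaling the median log2 ratio of all genes was itself 1.00, at the 2-fold limit. Shares of all genes past 1.5-fold and 2-fold were computed for the main setting only (26.2% and 13.5%). The median difference in the share of cells was 22.8 percentage points, from 18.7 to 27.0 over 8 alternatives. The median r in WT LPS moved from 0.0377 to 0.0600 at 1000 UMIs per cell, and the other alternatives left it between 0.0277 and 0.0327. Of 84 single-gene values, 71 stayed within the gene's interval, 13 moved outside it and 0 changed sign. No paired analysis was possible because each genotype has 1 library, and no replicate could be left out. Counts per cell are sparse, and a second draw of UMIs changed which genes lay beyond free RNA and which differed between inflammatory classes.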
